A study of Mus musculus with 6 samples.

Results

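The potassium channel genes of the mouse carry the Kcn symbols, and they encode the pore-forming subunits of potassium channels together with the small proteins that attach to them. All rows of the deposited table whose symbol begins with Kcn, followed by letters and a number, were taken as members, except Kcnj13 and Kcne2, which are also known as choroid plexus genes. The rule used names only, but it was set with earlier results of these data known. It found 89 of the 16060 rows, in 20 subfamilies by the letters after Kcn, and 84 of them are channel or auxiliary subunits while 5 are antisense or overlapping RNAs that carry a member's name. The libraries came from the hippocampus of adult male C57BL/6 mice, with 1 library per mouse. Mice of the Control group (n = 3) were injected with saline, and mice of the MA group (n = 3) with methamphetamine, a psychostimulant, at 5, 10 and 15 mg/kg in weeks 1, 2 and 3. Behavior was tested on day 22, and the mice were sacrificed straight after. The comparison asks which genes of the hippocampus differ after repeated MA exposure.

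Potassium channels let potassium leave the cell, or enter it at very negative voltages, and thereby set the resting potential, the length of the action potential and the rate of firing. Voltage-gated (Kv) channels open on depolarization. BK, SK and IK channels respond to intracellular calcium, inward rectifiers (Kir) carry current near rest and answer to G proteins or ATP, and two-pore-domain (K2P) channels carry leak current. In hippocampal pyramidal neurons, Kv4 channels with their KChIP and DPP partners carry the A-type current of the dendrites, and Kv7 channels carry the M-current that acetylcholine suppresses.

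Of the 74 tested members, 0 differed between the groups (limma, p-values adjusted by Benjamini-Hochberg over the 13321 genes tested, threshold 0.05), where 0.263% of all tested genes did. At an unadjusted limma p-value under 0.05, 5 members were higher in MA and 4 were lower. Over all tested genes the shares were 4.99% higher and 5.46% lower. In 6 members each MA library lay above each Control library and in 7 each lay below. Over all tested genes, 7.32% and 10.2% were of these kinds. Single libraries moved these counts. Without Control replicate 1 or 3 the 5 higher members became 3 (4.05%), beside 3.21% and 3.86% of all tested genes. Without Control replicate 2 they became 2 (2.7%), beside 3.65%. The 4 lower ones became 2 (2.7%) without Control replicate 2 or MA replicate 1, beside 3.19% and 4.06%. Without MA replicate 3 there were 16 higher members in place of 5 and 27 without overlap in place of 13. Then 1 member (1.35%, all tested genes 1.93%) passed the adjusted threshold. Without that library 36.5% of the members and 42.9% of all tested genes were without overlap, so the member share lay below the general one. In the same comparison 21.6% of the members against 11.9% of all tested genes were higher. A lack of overlap is more common with fewer libraries in a group. Leaving out any other single library gave 16 to 19 members without overlap. The log2 fold change, the mean of the MA libraries minus the mean of the Control libraries, was positive in 32 members and negative in 42, with a median of -0.013 beside -0.010 over all tested genes. It ranged from -0.45 for Kcnh7 to 0.70 for Kcnt1, and 1 member, Kcnt1, exceeded 0.5 in size. The rows left out by the rule, Kcne2 and Kcnj13, were at 2.07 and 1.73. The 95% interval of the difference lay within 0.5 of 0 for 40 of the 74 members and within 1 of 0 for 70. Of all 13321 tested genes it did so for 8968 and 12840. The median standard error of the difference was 0.137 for the members and 0.123 over all tested genes.

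Levels are the deposited values, which are scaled by gene length and library and read here as log2 of the value plus 1. A fold change on this scale understates the difference of low genes. The depth of the libraries is not known from the table. The library of MA replicate 3 stood apart from the others. It held 0 values of exactly 0 in the 16060 rows, with a lowest value of 0.000206. The other libraries held from 259 to 437 such values each, and the reason is not known. The mean correlation of MA replicate 3 with the other MA libraries across tested genes was 0.978. For MA replicates 1 and 2 the means were 0.984 and 0.985, which include their correlation with MA replicate 3. Among the Control libraries the means ran from 0.991 to 0.993. Many differences and role counts that it moves are given with and without it. The markers of hippocampal neurons were detected in all 6 libraries, with a summed log2 level between 9.62 and 9.85. Of the 9, 0 passed the adjusted threshold (limma) and 2 were lower in MA without overlap. Only 1 of the 9 had a positive difference, Slc17a7 at 0.06, which had the highest level of them and so weighs most in the sum. In bulk tissue, fewer cells of a type and less RNA per cell cannot be told apart.

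The members spanned the whole range from near absence to the level of abundant neuronal genes. Of the 89, 15 were under the filter on low values, which asked for 0.5 or more after back-transformation in 3 libraries, and were not tested. They included Kcna10, Kcnh5, Kcnh6, Kcnh8, Kcnj5, Kcnk5, Kcnk7, Kcnk15, Kcnmb1, Kcnmb3, Kcnn4 and Kcnq1. Kcnk15 was listed at 0 in all 3 Control libraries and did not exceed 0.09 in the MA libraries. Among these low members Kcne3, a small auxiliary subunit, was the one whose groups did not overlap, with log2 levels of 0.28, 0.20 and 0.33 in Control and 0.44, 0.50 and 0.39 in MA.

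**Figure D1:**
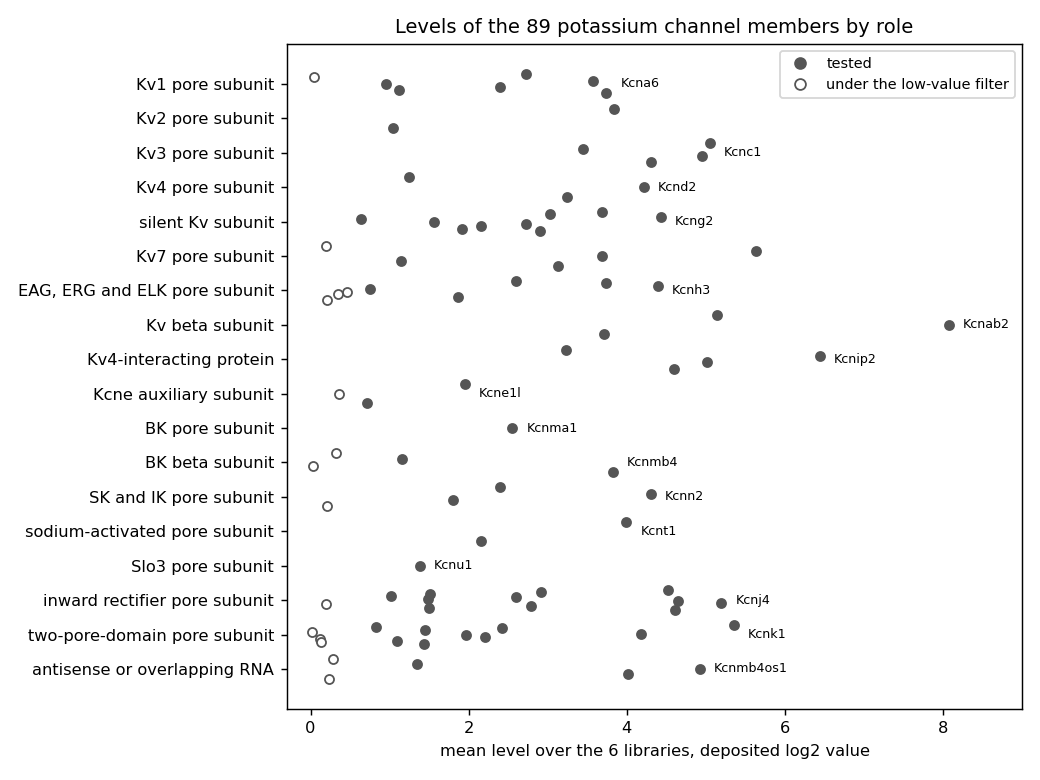
Mean log2 level over the 6 libraries (horizontal axis) of each of the 89 members, by role (rows). Filled points are the 74 tested members and open points the 15 under the low-value filter; the highest member is named in most roles, with Kcnab2 at 8.07 and Kcnip2 at 6.44.

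The highest member was not a pore but Kcnab2, a beta subunit that binds the cytoplasmic side of Kv1 channels, at a mean log2 level of 8.07. Kcnip2, a calcium-binding KChIP protein of Kv4 channels, followed at 6.44. Among the pores, Kcnk1, a K2P channel, stood at 5.35 and Kcnj4, a strong inward rectifier, at 5.19. In all of these the groups overlapped. Kcnk1 stood at 5.39, 5.34 and 5.41 in Control and 5.26, 5.40 and 5.32 in MA, a difference of -0.06 with a 95% interval from -0.24 to 0.12. Kcnj4 stood at 5.01, 5.26 and 5.31 in Control and 5.15, 5.08 and 5.35 in MA, a difference of 0.00 with an interval from -0.27 to 0.26. For Kcnip2 the Control values of 6.69, 6.40 and 6.24 enclosed the MA values of 6.19, 6.49 and 6.60 apart from the lowest, and the interval ran from -0.36 to 0.33.

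The 9 members with an unadjusted limma p-value under 0.05 came from 7 roles, and members of a single role lay on both sides in the Kv4 and the EAG, ERG and ELK groups. None passed the adjusted threshold, so each is a difference in these 6 libraries that was not called. When limma's array weights were used, which gave MA replicate 3 less weight, 5 of the 9 passed, among them Kcnip4, Kcna5, Kcnt1 and Kcnh7 (limma, adjusted p from 0.0345 to 0.0471). These were 6.76% of the 74 members, where the same weights called 4.4% of all tested genes. The regions before the starts of 4 of them, Kcna5 and Kcnh2 with higher and Kcnh7 and Kcnd2 with lower values in MA, are shown because these have a single start in the RefSeq table used. Each run is the 250 bases before the RefSeq start on GRCm38.p6, 5′ to 3′ on the gene's strand, with matches to the GC box, GGGCGG on either strand, in capitals.
Kcna5 (chr6:126535556-126535805, minus strand): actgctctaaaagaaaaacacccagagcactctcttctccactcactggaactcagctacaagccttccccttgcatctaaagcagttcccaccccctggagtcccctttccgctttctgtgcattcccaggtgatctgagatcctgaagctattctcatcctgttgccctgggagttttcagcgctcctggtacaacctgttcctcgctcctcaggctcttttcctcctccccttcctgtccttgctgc
Kcnh2 (chr5:24329592-24329841, minus strand): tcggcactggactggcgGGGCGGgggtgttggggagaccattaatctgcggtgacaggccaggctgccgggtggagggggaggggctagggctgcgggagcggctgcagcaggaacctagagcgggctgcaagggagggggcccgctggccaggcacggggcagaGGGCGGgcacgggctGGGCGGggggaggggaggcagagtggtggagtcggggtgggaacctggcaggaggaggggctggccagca
Kcnh7 (chr2:63184288-63184537, minus strand): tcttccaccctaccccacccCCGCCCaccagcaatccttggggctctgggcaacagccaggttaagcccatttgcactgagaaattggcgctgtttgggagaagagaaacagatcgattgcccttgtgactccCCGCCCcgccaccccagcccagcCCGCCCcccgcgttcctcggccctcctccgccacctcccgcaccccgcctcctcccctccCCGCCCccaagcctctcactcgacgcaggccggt
Kcnd2 (chr6:21215096-21215345, plus strand): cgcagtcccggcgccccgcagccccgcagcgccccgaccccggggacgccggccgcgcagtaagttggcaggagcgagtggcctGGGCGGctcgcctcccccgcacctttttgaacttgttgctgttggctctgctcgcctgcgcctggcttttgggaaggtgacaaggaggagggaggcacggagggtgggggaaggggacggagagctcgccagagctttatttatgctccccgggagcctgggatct
The Kcnh7 region held 4 GC boxes, the Kcnh2 region 3, the Kcnd2 region 1 and the Kcna5 region 0, so the count did not separate the higher from the lower members. Over all promoters of the table's genes 53.1% held a GC box, beside 47.7% of the 88 promoters of 64 members. The CRE (TGACGTCA), the EGR letters (GCGTGGGCG or GCGGGGGCG) and the AP-1 letters (TGANTCA), searched on both strands, were in none of these 4 regions. They were in 0, 3 and 4 of the 88 member promoters and in 2.35%, 5.16% and 4.8% of all promoters. The Kcnh2 start lies inside the span that GENCODE gives the gene, chr5:24319589-24351604, and so belongs to a shorter transcript. The Kcna5 and Kcnd2 starts lie outside their GENCODE spans, chr6:126532551-126535412 and chr6:21215503-21729805. The bases just after these starts were not found in a GENCODE transcript of either gene. The Kcnh7 run ends next to its GENCODE span, chr2:62693414-63184287. These matches describe letters and not occupied sites.

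Kcnt1 is a pore subunit of sodium-activated potassium channels at chr2:25863734-25918273 on GRCm38. It had the largest difference of any tested member with all 6 libraries on the deposited scale. Kcna5 had a larger one with a pseudocount of 0.1 (0.83 against 0.74), and without MA replicate 3 the differences of Kcnma1, Kcnk9 and Kcna1, at 0.71, 0.69 and 0.65, were larger than its 0.61. Its log2 level was 3.46, 3.77 and 3.70 in Control and 4.35, 4.15 and 4.51 in MA. Each MA library lay above each Control library, and the lowest MA value was 4.15 against a highest Control value of 3.77. The difference was 0.70 with a standard error of 0.13 and a 95% interval from 0.40 to 1.00 (limma, adjusted p = 0.122). Its relative Kcnt2, which forms channels of the same kind, stood at 2.35, 2.14 and 2.40 in Control and 2.16, 2.13 and 1.79 in MA. The groups of Kcnt2 overlapped, and its difference of -0.27 had an interval from -0.59 to 0.05 and was -0.15 without MA replicate 3.

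**Figure D2:**
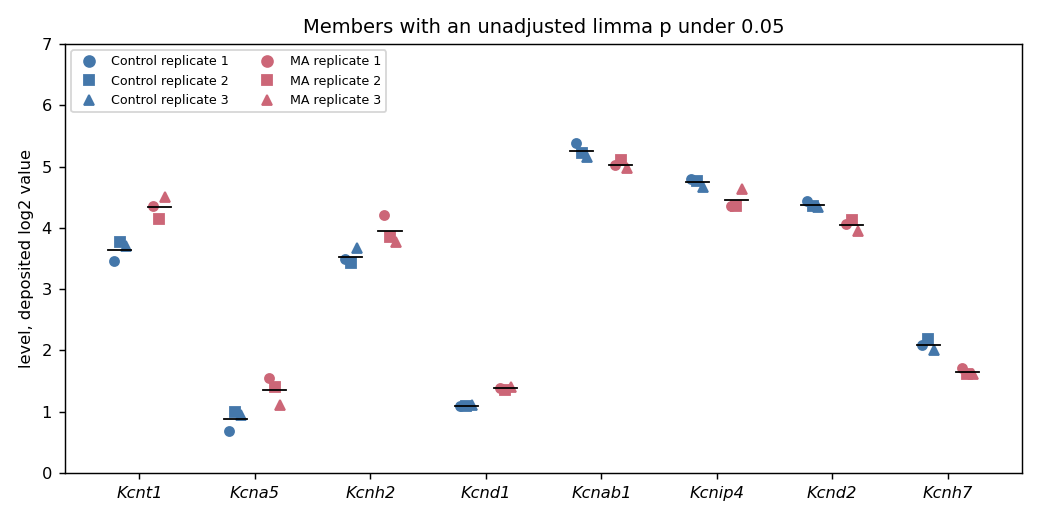
Log2 level (vertical axis) of 8 of the 9 members with an unadjusted limma p-value under 0.05, in each library; marker shapes are the replicates, colors the groups and black bars the group means. Kcnt1 is the only one of the 8 whose group means differ by more than 0.5.

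The Kv4 pore subunits, which inactivate quickly and carry A-type current, pointed in different directions. Kcnd2, the main Kv4 pore of pyramidal cell dendrites, stood at 4.44, 4.36 and 4.34 in Control and 4.06, 4.13 and 3.95 in MA. All MA values lay below all Control values, by -0.33 with a standard error of 0.09 and an interval from -0.54 to -0.13 (limma, adjusted p = 0.258). Kcnd1 stood at 1.09, 1.10 and 1.11 in Control and 1.39, 1.36 and 1.40 in MA, with little spread within either group. Its difference was 0.28 with an interval from 0.06 to 0.50 (limma, adjusted p = 0.371), and 0.46 with a pseudocount of 0.1 in place of 1. Kcnd3 stood at 3.08, 3.02 and 3.34 in Control and 3.61, 3.43 and 2.95 in MA, where MA replicates 1 and 2 were above and MA replicate 3 below all Control libraries.

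Of the 4 KChIP genes, whose proteins bind Kv4 channels and raise their surface level, Kcnip4 was lower in MA. It stood at 4.79, 4.76 and 4.67 in Control and 4.35, 4.35 and 4.64 in MA, with MA replicate 3 just under the lowest Control library. The difference was -0.29 with an interval from -0.53 to -0.04 (limma, adjusted p = 0.413), and -0.38 without MA replicate 3 (adjusted p = 0.0539). The other KChIP genes overlapped between the groups, with differences of 0.00 for Kcnip1, -0.02 for Kcnip2 and 0.08 for Kcnip3, which is also known as the transcriptional repressor DREAM. Without MA replicate 3 these were -0.02, -0.10 and 0.19. The DPP partners of Kv4, Dpp6 and Dpp10, had differences of 0.07 and 0.29 and overlapped as well. Kcnip4 overlaps exons on the opposite strand of 5730480H06Rik and Gm20700 in GENCODE, and as strand use in counting is not stated, reads of the pairs cannot be told apart.

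The EAG, ERG and ELK group (Kcnh), slowly gated Kv channels, held 1 member with higher and 1 with lower values. The ERG pore Kcnh2 stood at 3.49, 3.43 and 3.67 in Control and 4.21, 3.85 and 3.77 in MA, and the groups did not overlap although MA replicate 3 was close to Control replicate 3. Its difference was 0.42 with a standard error of 0.14 and an interval from 0.10 to 0.73 (limma, adjusted p = 0.359). Kcnh7, another ERG pore, stood at 2.08, 2.19 and 2.0 in Control and 1.71, 1.62 and 1.61 in MA. Its MA values lay close together and below all Control values, by -0.45 with a standard error of 0.10 and an interval from -0.69 to -0.21 (limma, adjusted p = 0.210). Kcnh7, at chr2:62693414-63184287, overlaps exons of Gca on the opposite strand. Kcnh3, an ELK channel and the highest Kcnh gene, had a difference of 0.03 with an interval from -0.21 to 0.28, and of -0.05 without MA replicate 3.

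Among Kv1 genes, which encode low-threshold axonal channels, 4 of 6 tested members had a positive and 2 a negative difference, with a median of 0.12. Without MA replicate 3 it was 5 of 6. Kcna5 was the one without overlap, at 0.68, 0.99 and 0.95 in Control and 1.55, 1.41 and 1.11 in MA. The difference was 0.48 with an interval from 0.13 to 0.84 (limma, adjusted p = 0.347), and it was 0.83 with a pseudocount of 0.1. Kcna5 lies on chromosome 6 with Kcna1 and Kcna6 as neighbors, at 126532551-126535412, 126640397-126646384 and 126708329-126740674, all on the minus strand. Kcna6 had a difference of -0.19 with an interval from -0.49 to 0.12. Kcna1 had one of 0.12 with all libraries, and of 0.65 beside 0.60 for Kcna5 without MA replicate 3, and the genes were not tested against each other. Kcna2 and Kcna4, major pores of axons, overlapped between the groups, at -0.01 and 0.12, or 0.12 and 0.30 without MA replicate 3.

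The Kv beta subunits, which modulate Kv1 channels, included Kcnab1 with lower values. It stood at 5.38, 5.22 and 5.15 in Control and 5.02, 5.10 and 4.97 in MA, and the gap between the groups was small, since the lowest Control value was 5.15 and the highest MA value 5.10. The difference was -0.22 with an interval from -0.43 to -0.01 (limma, adjusted p = 0.464). Kcnab1 overlaps exons of A330015K06Rik on the opposite strand, and without strand their reads cannot be told apart. Kcnab2 had a difference of 0.03 (0.23 without MA replicate 3) and Kcnab3 of -0.14, both with overlap. Of the Kv3 genes, which serve fast-spiking cells, 3 of 4 had positive differences, with a median of 0.21, and all 4 had without MA replicate 3. Kcnc1, the highest Kv3 gene, had a difference of 0.00 with an interval from -0.37 to 0.36, and of 0.15 without MA replicate 3.

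Kcnb2, a Kv2 gene that encodes a delayed rectifier, had a difference of -0.16 with overlap, which was -0.01 without MA replicate 3. The silent Kv subunits (Kcnf, Kcng, Kcns and Kcnv), which form channels only together with Kv2, had 5 positive and 4 negative differences, from -0.24 to 0.20, and 7 and 2 without MA replicate 3. The highest of them was Kcng2, at 4.52, 4.25 and 4.24 in Control and 4.51, 4.55 and 4.54 in MA, where Control replicate 1 lay among the MA values. Of the Kv7 genes, Kcnq3, a subunit of the M-channel, stood at 3.90, 3.78 and 3.78 in Control and 3.53, 3.77 and 3.41 in MA. Its groups did not overlap, though the lowest Control value of 3.78 and the highest MA value of 3.77 nearly met, and its difference of -0.25 had an interval from -0.52 to 0.02. Kcnq5 had a difference of 0.12 with overlap, and of 0.28 without MA replicate 3, where the groups did not overlap.

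The calcium-activated genes showed no member past an unadjusted p-value of 0.05. All 3 tested SK genes, whose channels contribute to the afterhyperpolarization, had negative differences, from -0.24 to -0.01, but Kcnn3 was at 0.14 without MA replicate 3. Kcnn2 stood at 4.25, 4.59 and 4.41 in Control and 4.07, 4.32 and 4.15 in MA, with overlap, and the interval of its difference of -0.24 was -0.51 to 0.04. Without Control replicate 2 the difference was -0.15. Kcnn1 did not overlap, at -0.10 with an interval from -0.32 to 0.12. The neuronal BK beta subunit Kcnmb4 stood at 3.69, 4.03 and 4.0 in Control and 3.37, 3.74 and 4.09 in MA. Its antisense neighbor Kcnmb4os1 followed the same order of libraries within MA, at 4.56, 4.82 and 5.36, after 4.68, 5.05 and 5.03 in Control. Their exons overlap on chromosome 10, at 116417861-116473878 and 116418052-116421237, and without strand their reads cannot be told apart.

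Of the 11 tested inward rectifiers, 5 had positive and 6 negative differences, with a median of 0.00 and a range from -0.21 to 0.24. Without MA replicate 3 there were 9 positive and 2 negative differences, with a median of 0.19 and a range from -0.08 to 0.38. Kcnj3, a subunit of G-protein-gated channels, had one of the tightest estimates of the family. It stood at 4.71, 4.61 and 4.62 in Control and 4.68, 4.63 and 4.59 in MA, a difference of -0.02 with an interval from -0.20 to 0.16. Its partner Kcnj9 had a difference of 0.04 with an interval from -0.37 to 0.45, and of 0.19 without MA replicate 3. The glial channels Kcnj10 and Kcnj16, which take up potassium in astrocytes, had differences of -0.02 and 0.24 with overlap, and of 0.13 and 0.38 without MA replicate 3. The KATP pores Kcnj8 and Kcnj11 had differences of 0.15 and -0.12 (0.19 and 0.14 without MA replicate 3), and their sulfonylurea receptor partners Abcc9 and Abcc8 by -0.06 and -0.04, all with overlap. Kcnj14 was the only rectifier without overlap, at 0.92, 0.92 and 0.94 in Control and 1.17, 1.09 and 1.09 in MA, and its difference of 0.19 had an interval from -0.04 to 0.42, or was 0.34 with a pseudocount of 0.1.

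Of the 9 tested K2P genes, 2 had positive and 7 negative differences, with a median of -0.06, and 4 and 5 without MA replicate 3. Kcnk2, the mechanosensitive and lipid-sensitive TREK channel, was the one without overlap, at 4.20, 4.31 and 4.26 in Control and 4.02, 4.20 and 4.10 in MA. Highest MA and lowest Control value were both 4.20 at this rounding, and the difference of -0.15 had an interval from -0.35 to 0.05.

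**Figure D3:**
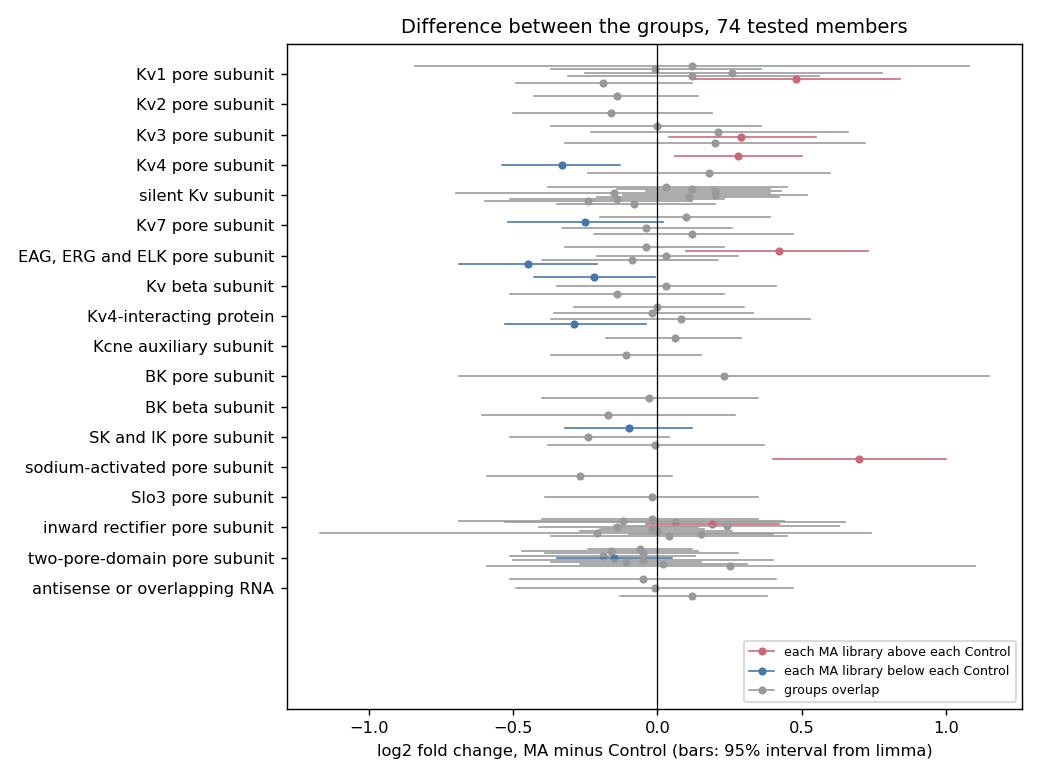
Log2 fold change, MA minus Control (horizontal axis), of the 74 tested members by role (rows), with 95% intervals from limma as bars. Red members have each MA library above each Control library (6), blue members each below (7), and grey members overlap (61).

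Partner genes without a Kcn symbol were taken from a list of 28, of which 27 were in the table and 26 were tested. None passed the adjusted threshold (limma), and with the unadjusted p-value 0 were higher and 1 was lower. The median difference was -0.024. The lower one was Kctd12, an auxiliary subunit of GABA-B receptors that speeds the desensitization of the currents they evoke through Kir3 channels. It stood at 4.52, 4.85 and 4.50 in Control and 3.79, 4.10 and 4.18 in MA, without overlap, a difference of -0.60 with a standard error of 0.14 (limma, adjusted p = 0.219). The Kir3 pores themselves, Kcnj3, Kcnj6 and Kcnj9, overlapped between the groups.

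Some members divided the MA libraries among themselves rather than from Control, a pattern that was singled out after the values were seen. In 9 members, 12.2% of the tested ones beside 8.82% of all tested genes, MA replicates 1 and 2 lay above all Control libraries and MA replicate 3 below all of them. Among them were Kcna1, Kcna3, Kcnab2, Kcnc2, Kcnd3, Kcnk9, Kcnma1 and Kcnq5. The opposite arrangement held for 1 member, Kcns3, which is 1.35% beside 6.2% of all tested genes. MA replicate 3 was the lowest of the 6 libraries in 34 members, or 45.9%, beside 29.8% of all tested genes.

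The widest of these divisions were in pore subunits. Kcna1, a Kv1 pore of axons, stood at 2.71, 2.42 and 2.88 in Control and 3.34, 3.30 and 1.73 in MA. Kcnma1, the BK pore, stood at 2.49, 2.06 and 2.75 in Control and 3.17, 3.11 and 1.70 in MA. Kcnk9, an acid-sensitive leak channel, stood at 1.04, 1.24 and 1.64 in Control and 1.87, 2.12 and 0.69 in MA. In each, MA replicate 3 was the lowest of all 6 libraries and the other MA libraries the highest. Kcnj6, a Kir3 pore, came close to the same order, at 2.89, 2.64 and 3.16 in Control and 3.34, 3.06 and 1.65 in MA, though MA replicate 2 lay below Control replicate 3. MA replicate 3 minus the mean of MA replicates 1 and 2 was -1.59 for Kcna1, -1.54 for Kcnj6, -1.44 for Kcnma1 and -1.30 for Kcnk9.

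**Figure D4:**
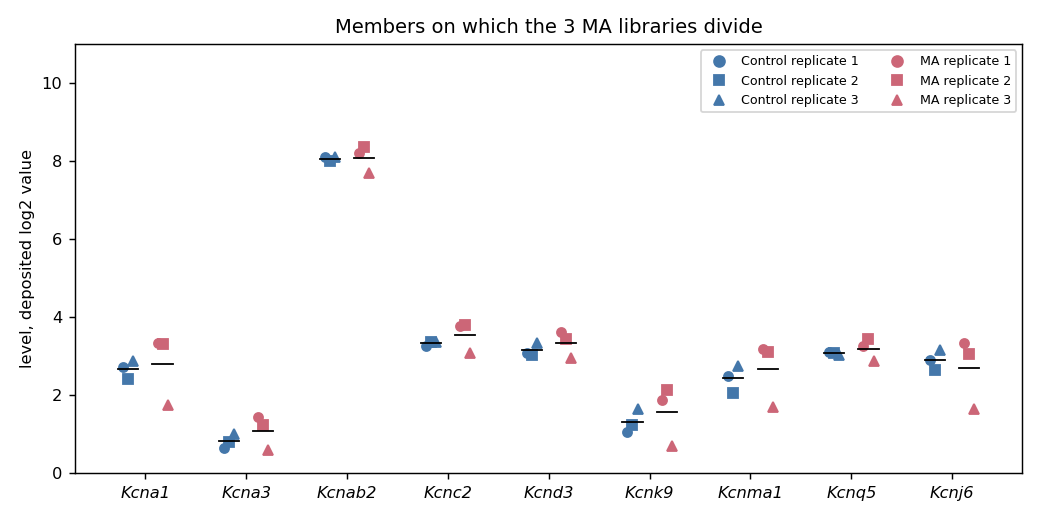
Log2 level (vertical axis) in each library of 8 of the 9 members with MA replicates 1 and 2 above and MA replicate 3 below all Control libraries, and of Kcnj6; shapes are replicates, colors groups and black bars group means. The MA triangles (replicate 3) sit lowest in each column, at 1.73 for Kcna1 and 1.65 for Kcnj6.

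With all 3 MA libraries these members had wide intervals, from -0.84 to 1.08 for Kcna1 and from -0.69 to 1.15 for Kcnma1. Without MA replicate 3 the difference was 0.65 for Kcna1, 0.71 for Kcnma1, 0.69 for Kcnk9, 0.45 for Kcnc2 and 0.30 for Kcnj6. Kcna1, Kcnma1, Kcnk9 and Kcnc2 were picked for MA replicates 1 and 2 lying above all Control libraries. Their positive sign and lack of overlap without MA replicate 3 were thus fixed by the choice. Of the 74 members, 16 (21.6%) were then higher at an unadjusted limma p-value under 0.05 and 4 (5.41%) lower, beside 11.9% and 11.4% of all tested genes. Kcnc2, a Kv3 pore, passed the adjusted threshold in that comparison (limma, adjusted p = 0.0498), as did 1.93% of all tested genes. The median over members was 0.051, against -0.013 with all libraries.

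Values that moved with this division included the length and GC content of the genes. Some markers of astrocytes, endothelium and mural cells, interneurons, microglia and the thalamus, which borders the hippocampus, did so too. Across the 74 members, MA replicate 3 minus the mean of the other MA libraries had a Pearson correlation of -0.411 and a Spearman correlation of -0.354 with the log2 exonic length. Over 13302 tested genes these were -0.320 and -0.358. With GC content both correlations were 0.184 across the members, and 0.248 and 0.273 over those genes. Genes of one library share its preparation and are not independent, so these values are descriptions. The summed log2 level of 9 thalamus markers was 5.21, 5.09 and 5.56 in Control and 6.34, 6.51 and 5.08 in MA, where MA replicate 3 lay at the level of Control replicate 2. It was the lowest library in 2 of the 9 markers, Rora and Synpo2. All 9 markers had a positive difference, 0 passed the adjusted threshold (limma) and none was at 0. The summed level of 6 astrocyte markers was 8.90, 8.85 and 8.98 in Control and 9.11, 8.91 and 8.42 in MA, and MA replicate 3 was the lowest library in 5 of them. In 2 of these, the glutamate transporters Slc1a2 and Slc1a3, the other MA libraries lay above all Control libraries. The 6 endothelial and mural markers summed to 6.23, 6.32 and 6.41 in Control and 6.68, 6.50 and 6.32 in MA. MA replicate 3 was the lowest library in 4 of them, and 2, Flt1 and Pecam1, divided in the same way. The interneuron and microglia lists each held 1 such marker. The hippocampal neuron, oligodendrocyte, choroid plexus and blood lists held 0. MA replicate 3 was still the lowest library in 4 of 9 hippocampal neuron markers, Neurod6, Prox1, Slc17a7 and Zbtb20. It was the lowest in 2 of 6 interneuron and 2 of 6 microglia markers. In the oligodendrocyte, choroid plexus and blood lists it was the lowest in 0, and over all tested genes in 29.8%. The part of any of these in the result was not tested.

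**Figure D5:**
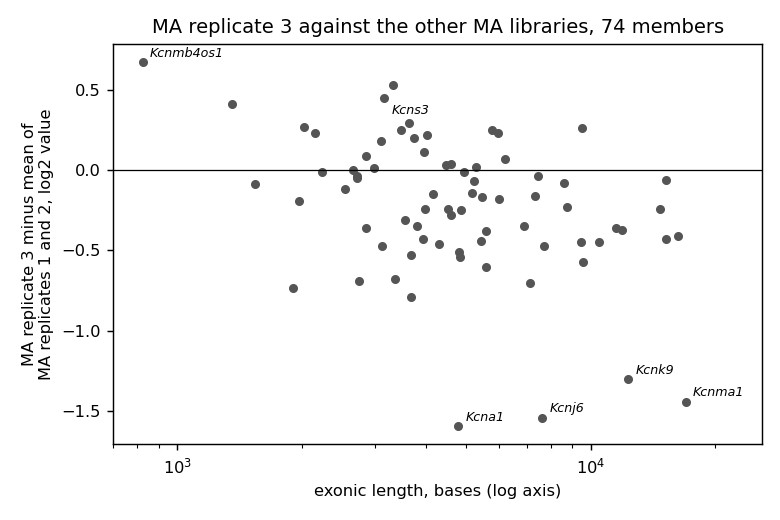
MA replicate 3 minus the mean of MA replicates 1 and 2, in log2 units (vertical axis), against exonic length in bases on a log axis (horizontal axis), for the 74 tested members. Kcna1, Kcnj6, Kcnma1 and Kcnk9 lie lowest, between -1.59 and -1.30, and Kcnmb4os1 highest at 0.67.

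Markers of choroid plexus and blood moved with the groups. The summed log2 level of 7 choroid plexus markers was 6.06, 7.46 and 8.72 in Control and 10.79, 11.17 and 12.31 in MA, with all 7 without overlap and 4 past the adjusted threshold (limma). The rows left out by the rule followed it, at 0.42, 0.73 and 1.11 in Control and 2.27, 2.53 and 3.66 in MA for Kcne2, and at 1.30, 1.05 and 1.48 against 2.61, 2.77 and 3.63 for Kcnj13. The 5 blood markers summed to 10.64, 10.98 and 10.90 in Control and 12.10, 11.70 and 11.91 in MA, and 3 of them passed. None of these markers was at 0 in any library, and their part in the differences of Kcnt1, Kcnh2, Kcna5 and Kcnd1 was not tested. The summed levels of interneuron, oligodendrocyte and microglia markers overlapped between the groups and 0 of the 6 genes of each list passed. Those of astrocytes and of endothelium and mural cells, the latter from 6.23 to 6.68, overlapped too, again with 0 of 6 genes past the threshold in each. Of the endothelial and mural markers 5 of 6 had positive differences and 2, Cldn5 and Pdgfrb, were higher without overlap. Of the astrocyte markers 0 of 6 had a positive difference and 1 was lower without overlap. Positive differences were found in 1 of 6 interneuron, 1 of 6 oligodendrocyte and 2 of 6 microglia markers. Of the microglia markers 1 was lower without overlap.

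The spread within groups was larger in the MA libraries. The median SD of the members was 0.146 in Control and 0.207 in MA, and 52 of 74 had the larger SD in MA. Over all tested genes the medians were 0.103 and 0.166, and 9468 of 13321 had the larger SD in MA. The MA values include MA replicate 3. With 3 libraries in each group the smallest p-value of an exact two-sided permutation test is 0.1. The limma p-values given here rest on 3 mice per group, with each gene's spread drawn toward a trend over all tested genes. For Kcnd1, with an SD of 0.01 in Control and 0.02 in MA, the standard error was 0.1.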

How the data were processed

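Hippocampal RNA of 3 Control and 3 MA mice was analysed, grouped by the sample labels. The paper describes paired-end reads aligned with Hisat2, counted with featureCounts and converted to FPKM, whereas the submitters' processing notes list Bowtie 0.12.2 and the builds mm8 and mm9. The authors deposited 1 table of log2 values (the base and an offset of 1 were inferred here from the values). The log transform and the scaling between libraries are not described, and strand use in counting is not given in the sources used here. The table gives no read totals, and depth is unknown.

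The deposited log2 values of 13321 genes, those that reached 0.5 after back-transformation in 3 or more libraries, were fitted with limma 3.58.1 in R 4.3.3 (lmFit, eBayes with a trend, no covariate), with Benjamini-Hochberg adjustment over all of them and a threshold of 0.05. The fit was tested on simulated data. Members and lists were chosen with earlier results of these data known. The text names members with an adjusted p under 0.05, the 8 higher and 8 lower with the smallest p, a fixed list by role and the 5 highest, 37 in all; a few of these are not reported here. Others named, such as the divided members, the members whose groups did not overlap, neighbors on the chromosome and members named within their role, were chosen after their values were seen. All 89 members were matched to GENCODE M21 on GRCm38, used here for locations and exon overlaps. The same annotation gave the exonic length and GC content of the members and of the other tested genes. The annotation behind the deposited values is not settled. Promoter sequences are from RefSeq on GRCm38.p6, where 64 of 89 members had an entry. Marker lists for hippocampal neurons, interneurons, astrocytes, oligodendrocytes, microglia, endothelium and mural cells, choroid plexus, thalamus and blood were summed on the back-transformed scale. Alternatives were median centring, quantile normalization, a pseudocount of 0.1, no filter, a mean of at least 5, eBayes without the trend, limma's array weights, a replicate block and leaving out each library.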

Additional observations from a re-analysis of the deposited data

How the results depend on the processing

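No member was called with median centring, quantile normalization, a pseudocount of 0.1, no filter, a mean of at least 5, eBayes without the trend or the replicate block. The median log2 fold change of the members stayed between -0.050 and 0.051 in all alternatives. Limma's array weights, which gave MA replicate 3 a weight of 0.194, called 5 members, among them Kcnip4, Kcna5, Kcnt1 and Kcnh7 (limma, adjusted p from 0.0345 to 0.0471, with 586 of all genes, 4.4%, called beside 6.76% of the members), and 1 partner gene, and put 18 members (24.3%, all genes 12.9%) higher at an unadjusted p-value under 0.05. A mean of at least 5 left 43 members, 3 of them higher (6.98%, all genes 4.46%) and 8 without overlap (18.6%, all genes 16.9%). Leaving out 1 library in turn gave 0 to 1 members called, 2 to 16 higher, 2 to 4 lower and 16 to 27 without overlap. The shares were 2.7% to 21.6% higher, 2.7% to 5.41% lower and 21.6% to 36.5% without overlap. Over all tested genes they were 3.21% to 11.9%, 3.02% to 11.4% and 23.6% to 42.9%. The highest counts of calls, of higher members and of members without overlap came without MA replicate 3. Higher members numbered 3 (4.05%) without Control replicate 1 or 3, beside 3.21% and 3.86% of all genes. They numbered 2 (2.7%) without Control replicate 2, beside 3.65%. Lower members numbered 2 (2.7%) without Control replicate 2 or MA replicate 1, beside 3.19% and 4.06%.

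Same-numbered libraries did not deviate together (correlations of -0.197, -0.242 and -0.337 across genes), so the numbers are not taken as pairs. With the replicate block 0 members were called, and the unadjusted p-value was under 0.05 for 3 higher and 2 lower members. These were 4.05% and 2.7% of the members, beside 3.53% and 2.79% of all genes.

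Directions near 0 depended on single libraries. With array weights the difference became 0.02 for Kcna2, 0.20 for Kcnj6, 0.05 for Kcnj10 and 0.13 for Kcnj11. Leaving out each library in turn gave -0.13 to 0.12 for Kcna2, -0.54 to 0.30 for Kcnj6, -0.15 to 0.13 for Kcnj10, -0.28 to 0.14 for Kcnj11, -0.11 to 0.20 for Kcnip3, -0.04 to 0.01 for Kcnj3, -0.12 to 0.19 for Kcnj9, -0.12 to 0.11 for Kcnip2, -0.15 to 0.65 for Kcna1, -0.11 to 0.23 for Kcnab2, -0.03 to 0.71 for Kcnma1, -0.35 to 0.01 for Kcnmb4 and -0.01 to 0.30 for Kcna4. The cause was not tested. The 9 members with an unadjusted p-value under 0.05 kept their direction in every alternative that tested them. Depth is unknown, so what it limits cannot be given.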
